A study of Mus musculus with 10 samples.

Results

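The NF-kappa-B and I-kappa-B family was described across 10 libraries of whole ovary RNA, with its members taken by gene symbol: the NF-kappa-B subunits Nfkb1, Nfkb2, Rel, Rela and Relb, the classical inhibitors Nfkbia, Nfkbib and Nfkbie, and the nuclear I-kappa-B proteins Nfkbiz and Bcl3. All 10 members were found among the 22891 genes of the table, and all 10 were among the 15629 genes that passed a filter on low values (mean level no lower than 10 when taken back from log2). The family was selected on results of these data that were already known, in which Nfkbiz was 1 of the 4 genes with the smallest p in the comparison of the groups. Differences between the groups are therefore given for the members as a description, without a test, and nothing is concluded from the fact that Nfkbiz stands apart.

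The libraries came from ovaries labelled Uba3 cKO (n = 5) and from control ovaries (n = 5), all from 3-week-old mice of the strain given as C57/Bl6/N;129SvEv7, without hormone stimulation. The labels name neither the Cre driver nor the cells in which Uba3 was deleted, and they do not say what alleles the controls carried. The protein made from Uba3 is the catalytic part of the enzyme that activates NEDD8, a ubiquitin-like protein. Whether each ovary came from its own animal is not stated, so errors and p-values reflect the spread among these samples, which may be partly technical.

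NF-kappa-B factors are dimers of Rel-domain proteins that wait in the cytoplasm, held by I-kappa-B proteins, until a signal from receptors of the TNF, interleukin-1 or Toll-like families activates the I-kappa-B kinase. The kinase marks I-kappa-B for the ubiquitin ligase SCF-betaTrCP, whose cullin scaffold works efficiently only when NEDD8 is attached, and the proteasome then destroys the inhibitor. The precursors made by Nfkb1 and Nfkb2 are trimmed to the DNA-binding subunits p50 and p52, and the same ligase takes part in the trimming to p52. The freed dimers enter the nucleus and raise, among other genes, those of their own inhibitors. In the ovary the pathway is known for its activity in granulosa cells and in the leukocytes drawn in around ovulation. These steps act on protein, and the libraries measured RNA alone.

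Since NF-kappa-B is known to act on genes of its own family, the members' promoters were read for its binding element. RefSeq promoters on the build GRCm38.p6, which run from 250 bases before to 50 bases after a gene's start, were at hand for 7 members: Nfkb2, Rel, Rela, Nfkbia, Nfkbib, Nfkbie and Bcl3. They were searched on either strand for the kappa-B consensus, the 10-base element that NF-kappa-B dimers bind, and overlapping matches were counted as 1. Matches lay in the promoters of 5 of these 7 members, against 2581 of 27025 genes (9.55%) in the whole table. The members without a match in this window were Rela and Nfkbib. These windows are shown because they carry these matches, printed 5′ to 3′ along the gene with the match in capitals and 25 bases on either side.
Nfkbia: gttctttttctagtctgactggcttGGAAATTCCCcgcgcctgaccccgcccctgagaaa
Rel: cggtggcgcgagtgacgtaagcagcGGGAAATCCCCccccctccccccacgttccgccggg
Bcl3: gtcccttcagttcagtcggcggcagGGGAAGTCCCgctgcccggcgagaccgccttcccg
Nfkbie: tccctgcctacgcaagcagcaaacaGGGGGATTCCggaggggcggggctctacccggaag

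The Nfkbia window lies at chr12:55492642-55492701 on the minus strand, with its match starting 29 bases before the gene's start. The Rel window lies at chr11:23771026-23771086 on the minus strand, with its match starting 92 bases before the start. The Nfkbie window lies at chr17:45555569-45555628 on the plus strand, with its match starting 106 bases before the start. The Bcl3 window lies at chr7:19822719-19822778 on the minus strand, and its match begins 2 bases after the start. Nfkb2 has 3 promoter entries, each with at least 1 match, and the first and the second hold 2 each. The first (chr19:46304487-46304786, plus strand) is given whole, with its matches starting 39 and 11 bases before the start.
Nfkb2: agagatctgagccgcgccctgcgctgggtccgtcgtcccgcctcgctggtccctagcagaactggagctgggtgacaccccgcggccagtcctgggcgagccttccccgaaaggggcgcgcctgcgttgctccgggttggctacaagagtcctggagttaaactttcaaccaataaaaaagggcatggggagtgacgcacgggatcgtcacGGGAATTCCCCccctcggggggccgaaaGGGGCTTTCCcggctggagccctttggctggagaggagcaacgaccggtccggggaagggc

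A match describes the letters only, and binding was not measured here. The files were made on GRCm39 per the submitters' processing notes, so these positions belong to the RefSeq sequence and not to the deposited values.

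The labels were checked against tissue markers and the targeted gene. Among cell type lists, all 14 oocyte, 10 granulosa, 6 theca and 14 vessel and stroma markers passed the filter, and 0 of them had an unadjusted p under 0.05 by limma. The same holds for the 11 leukocyte markers tested, while 1 of 12 epithelium and oviduct markers (8.33%) was under 0.05, against 1.79% of all genes. Gdf9, a growth factor of the oocyte, had a level of 12.24 ± 0.30 (SD, n = 5) in ovaries labelled Uba3 cKO and 12.30 ± 0.30 (SD, n = 5) in control ovaries on the deposited log2 scale, and Zp2, a zona pellucida protein, 12.003 under the Uba3 cKO label and 12.04 in controls. The granulosa genes Inha and Gja1 averaged 16.67 and 16.00 under the Uba3 cKO label, against 16.61 and 16.02 in controls. The steroid enzymes Hsd3b1 and Cyp11a1 averaged 13.72 and 9.10 under the Uba3 cKO label, against 13.52 and 9.22 in controls, and the collagens Col1a2 and Col3a1 12.50 and 12.40 under the Uba3 cKO label, against 12.32 and 12.40 in controls. Uba3 itself had levels of 10.12, 10.13, 10.12, 10.03 and 10.22 in the libraries labelled Uba3 cKO, against 10.17, 10.09, 9.88, 10.37 and 10.09 in control libraries (log2 difference 0.0032, exact two-sided permutation test, p = 1). The level was thus not lower under the Uba3 cKO label, and since neither the deleted exons nor the deleted cells are given, the groups are named as labelled. Library medians ran from 6.29 to 6.44, and the depth behind the values is unknown. Control replicate 3 stood apart from the others, with a slope of its deviations on log2 exon length of -0.155 over 9182 genes, where the other libraries lay between -0.060 and 0.058.

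Nfkbiz was the member with the higher level in ovaries labelled Uba3 cKO, and in the other 9 members the groups overlapped. Nfkbiz (ENSMUSG00000035356) encodes I-kappa-B zeta, an inducible nuclear protein that binds NF-kappa-B on chromatin and is needed for a second wave of genes after Toll-like or interleukin-17 signals. Its levels in the libraries labelled Uba3 cKO were 7.52, 7.53, 7.29, 7.43 and 7.38, against 6.97, 6.999, 6.77, 7.22 and 6.72 in control libraries. The lowest library labelled Uba3 cKO lay 0.072 log2 units above the highest control, so the groups did not overlap. The mean was 7.43 ± 0.098 (SD, n = 5) under the Uba3 cKO label and 6.94 ± 0.20 (SD, n = 5) in controls, a log2 difference of 0.49 (standard error 0.10, 95% interval from 0.27 to 0.72), which is a fold of 1.41 with bounds of 1.21 and 1.65. In whole ovary RNA, a change in the number of cells that express the gene and a change in RNA per cell cannot be told apart.

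**Figure D1:**
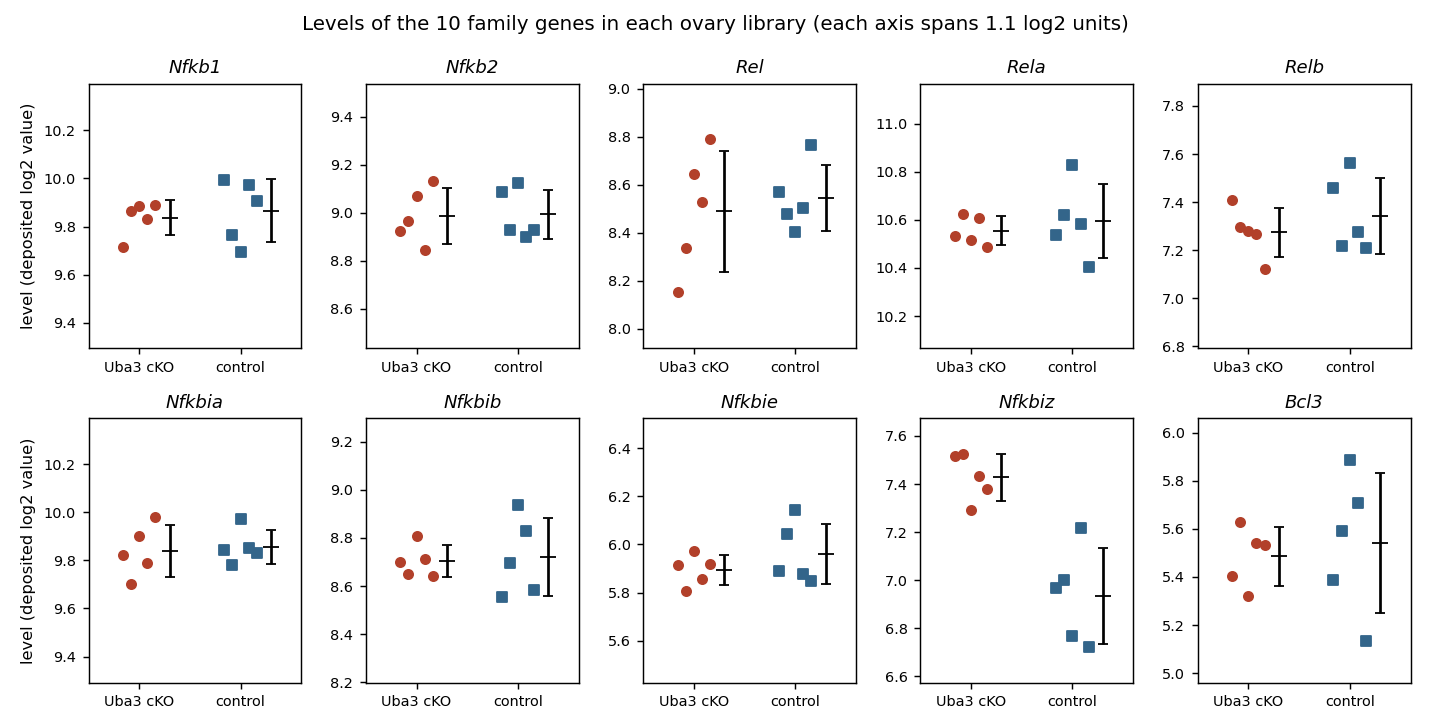
Level of each of the 10 family genes on the deposited log2 scale (vertical axis, every panel spanning the same width) in the 5 libraries labelled Uba3 cKO (circles) and the 5 control libraries (squares), with the mean and SD beside each group. Nfkbiz is the panel in which the groups do not overlap.

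These values of Nfkbiz are among those that led to the choice of the family. By limma over 15629 genes, 0 (0% of those tested) had an adjusted p under 0.05, 280 (1.79%) had an unadjusted p under 0.05 and 50 (0.320%) had groups that did not overlap, 31 of them (0.198%) with the Uba3 cKO libraries higher. Of the 10 members, 0 were among the genes called by adjusted p, and 1, Nfkbiz, was among the 280 and among the 50. That count follows from the selection of the family on this comparison, so nothing is read from it. Leaving out 1 library at a time, the log2 difference of Nfkbiz lay between 0.44 without control replicate 5 and 0.57 without control replicate 4. It was 0.45 without control replicate 3 and 0.49 with the libraries' slope on exon length included in the fit, a setting added once the data had been seen.

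Markers of some cells that could carry Nfkbiz were set beside it. No relation of Nfkbiz to the granulosa or theca level was computed, so nothing is said here about those cells. Of 20 leukocyte markers 11 passed the filter, and their mean level ran from 5.40 to 5.65 in libraries labelled Uba3 cKO and from 5.39 to 5.81 in control libraries. The highest were Lyz2, a lysozyme of macrophages and granulocytes, at 7.97 ± 0.36 under the Uba3 cKO label and 8.10 ± 0.58 in controls, and Mrc1, the mannose receptor of macrophages, at 6.68 ± 0.35 under the Uba3 cKO label and 6.47 ± 0.24 in controls. The complement genes C1qb and C1qa of macrophages averaged 6.51 and 5.96 over the 10 libraries, and Ptprc, the CD45 antigen of all leukocytes, 3.50. The neutrophil genes S100a8 and S100a9 and the integrin Itgam lay under the filter at 0.75, 0.56 and 0.60. All 12 epithelium and oviduct markers passed the filter, with a mean level from 7.58 to 8.02 under the Uba3 cKO label and from 7.34 to 8.03 in controls. The highest of them, the mesothelial gene Upk3b and the keratin Krt8, stood at 11.02 and 10.17 under the Uba3 cKO label and at 11.01 and 10.17 in controls. The 1 marker with an unadjusted p under 0.05 was the mucin Muc1, at 3.41 ± 0.043 under the Uba3 cKO label and 3.57 ± 0.13 in controls (log2 difference -0.17). With the leukocyte level as a covariate the difference of Nfkbiz was 0.48, and with the epithelium and oviduct level 0.49. Over the 10 libraries, Nfkbiz had Pearson r = -0.34 (permutation p = 0.337) and rho = -0.45 (permutation p = 0.191) with the leukocyte level, and r = -0.28 without the pair of libraries farthest from the median. With the epithelium and oviduct level it had r = -0.013 (permutation p = 0.973) and rho = -0.055 (permutation p = 0.892). With the vessel and stroma level it had r = 0.33 (permutation p = 0.339) and rho = 0.45 (permutation p = 0.192), and r = -0.045 without Uba3 cKO replicates 2 and 4. With the oocyte level it had r = -0.025 (permutation p = 0.944) and rho = 0.20 (permutation p = 0.583). With values centred on the group means, r of Nfkbiz was -0.47 with the leukocyte level and 0.46 with the vessel and stroma level. It was 0.029 with the epithelium and oviduct level and 0.023 with the oocyte level.

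Bcl3 (ENSMUSG00000053175), the other nuclear I-kappa-B protein, binds p50 and p52 dimers and can serve as a co-activator. Its levels were 5.41, 5.63, 5.32, 5.54 and 5.53 in libraries labelled Uba3 cKO, against 5.39, 5.59, 5.89, 5.71 and 5.13 in control libraries. The groups overlapped, and the lowest and the highest library were both controls. The log2 difference was -0.056 (standard error 0.13, 95% interval from -0.33 to 0.22). The interval of Bcl3 is the widest among the members.

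The classical inhibitors overlapped between the groups. Nfkbia (ENSMUSG00000021025) encodes I-kappa-B alpha, the fast inhibitor that NF-kappa-B induces and that is then broken down through SCF-betaTrCP. Its levels were 9.82, 9.70, 9.90, 9.79 and 9.98 under the Uba3 cKO label, against 9.85, 9.78, 9.97, 9.85 and 9.83 in controls, a log2 difference of -0.018 (standard error 0.065, 95% interval from -0.16 to 0.12). All 10 Nfkbia values lay within 0.28 log2 units, the narrowest range in the family. Nfkbib (ENSMUSG00000030595), which encodes the slower inhibitor I-kappa-B beta, averaged 8.70 ± 0.067 (SD, n = 5) under the Uba3 cKO label and 8.72 ± 0.16 (SD, n = 5) in controls. Nfkbie (ENSMUSG00000023947), which encodes I-kappa-B epsilon, averaged 5.89 ± 0.063 under the Uba3 cKO label and 5.96 ± 0.13 in controls, with a log2 difference of -0.067 (standard error 0.081). Neither gene had groups that stood apart. Nfkbib overlaps genes on the opposite strand, Sirt2 among them, and the sources do not say whether counting used strand, so reads of the overlap may be shared.

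The subunits with an activation domain are Rela, Rel and Relb. Rela (ENSMUSG00000024927), or p65, is the main partner of p50 in the classical pathway, and its levels were 10.53, 10.63, 10.52, 10.61 and 10.49 under the Uba3 cKO label, against 10.54, 10.62, 10.83, 10.58 and 10.40 in controls. The 5 libraries labelled Uba3 cKO fell inside the span of the controls, and the log2 difference was -0.041 (standard error 0.074, 95% interval from -0.20 to 0.12). Rel (ENSMUSG00000020275), the c-Rel subunit prominent in lymphoid cells, had 8.15, 8.34, 8.64, 8.53 and 8.79 under the Uba3 cKO label, against 8.57, 8.48, 8.40, 8.50 and 8.77 in controls. Rel spanned 0.64 log2 units, with both ends among the libraries labelled Uba3 cKO, and its log2 difference was -0.055 (standard error 0.12). Relb (ENSMUSG00000002983), the partner of p52 in the non-canonical pathway, averaged 7.28 ± 0.10 (SD, n = 5) under the Uba3 cKO label and 7.34 ± 0.16 (SD, n = 5) in controls, a log2 difference of -0.069 (standard error 0.094, 95% interval from -0.27 to 0.13).

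Nfkb1 (ENSMUSG00000028163) and Nfkb2 (ENSMUSG00000025225) encode the precursors p105 and p100, which carry I-kappa-B-like ankyrin repeats and so act as inhibitors before they are processed. Nfkb1 had levels of 9.72, 9.86, 9.89, 9.83 and 9.89 under the Uba3 cKO label, against 9.995, 9.77, 9.69, 9.97 and 9.91 in controls, a log2 difference of -0.030 (standard error 0.071, 95% interval from -0.18 to 0.12). Nfkb2 had levels of 8.93, 8.97, 9.07, 8.84 and 9.13 under the Uba3 cKO label, against 9.09, 8.93, 9.12, 8.90 and 8.93 in controls, a log2 difference of -0.0066 (standard error 0.076), the smallest in the family. The groups overlapped in each gene. Nfkb2 overlaps Psd on the opposite strand, with the same limit as for Nfkbib, and Nfkb1 and Bcl3 overlap the predicted genes Gm43430 and Gm16174.

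**Figure D2:**
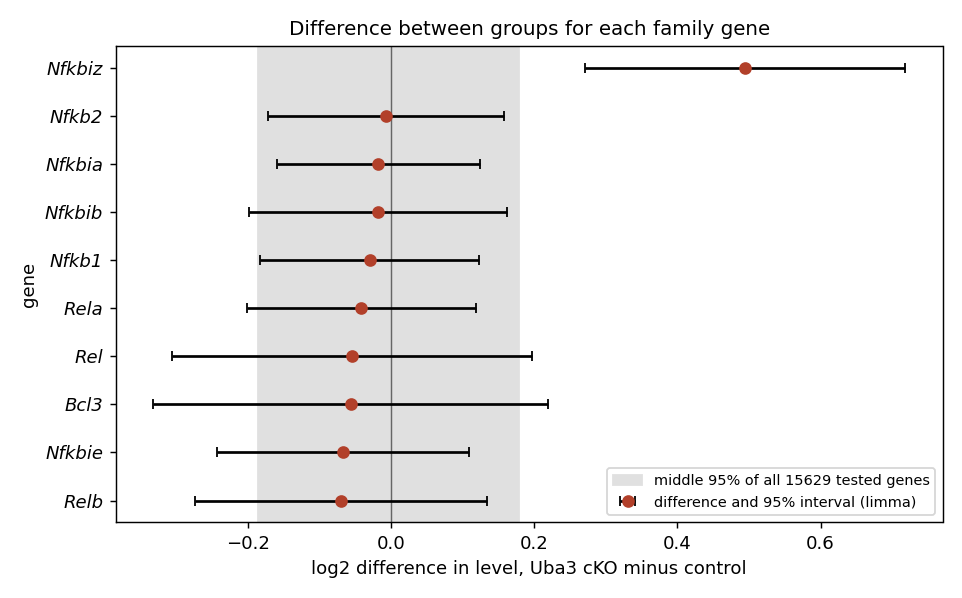
Log2 difference in level, Uba3 cKO minus control (horizontal axis), for each of the 10 family genes, with 95% intervals from the limma fit as bars; the grey band holds the middle 95% of the differences of all 15629 tested genes, from -0.19 to 0.18. Nfkbiz at 0.49 is the 1 gene outside the band, and the intervals of the other 9 cross 0.

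In the 9 members other than Nfkbiz the mean was lower under the Uba3 cKO label, with log2 differences from -0.069 to -0.0066 and a median of -0.041. Over all 10 members the median was -0.036, against 0.00034 over all genes tested. The 95% intervals of these 9 differences together spanned -0.33 to 0.22, so folds below 0.795 or above 1.16 lay outside every one of them. In 7 of the 9 the sign turned in at least 1 alternative setting, and it was kept in all 16 for Relb and Nfkbie. Without control replicate 3, the mean was higher under the Uba3 cKO label in 5 of the 9, with differences of 0.017 for Rela, 0.036 for Nfkbib, 0.030 for Bcl3, 0.026 for Nfkb2 and 0.011 for Nfkbia.

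Levels of different members were compared per kilobase of the longest protein-coding transcript, on the log2 scale. Nfkbia (9.19 ± 0.086, SD, n = 10) and Rela (9.13 ± 0.11) were the highest, and their order held in 6 of 10 libraries, so they were not told apart on this length. Nfkb1 followed at 7.81 ± 0.10 and Nfkbib at 7.67 ± 0.12, with Nfkb1 above in 9 of 10 libraries. Below them came Nfkb2 at 7.05 ± 0.10, Relb at 6.17 ± 0.13 and Rel at 5.62 ± 0.19, with the order from Nfkbib down to Rel the same in 10 of 10 libraries at each step. Nfkbiz stood next at 5.39 under the Uba3 cKO label and 4.89 in controls, with Rel above it in 8 of 10 libraries. Nfkbie at 4.64 ± 0.10 and Bcl3 at 4.63 ± 0.21 were the lowest and could not be ordered, with Nfkbie above in 5 of 10 libraries. Counted per kilobase of all annotated exons, Nfkb1 moved to the fifth place at 6.26, since its exons total 12061 bp, and Rel at 5.62 stood above Relb at 5.35, while Nfkbia was above Rela in 10 of 10 libraries.

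Members differed in how much they varied within a group. Among tested genes within 0.5 log2 units of the same mean level, the within-group SD of Rel was at percentile 76.9 and that of Bcl3 at percentile 75.9. Nfkbie was at percentile 6.90 and Nfkbia at percentile 23.0. The SD of Nfkbiz, 0.16, was at percentile 41.5.

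Control replicate 3 held many of the extreme values of the family. It had the highest of the 10 values for 5 members, which were Rela, Relb, Nfkbib, Nfkbie and Bcl3, and the lowest value of Nfkb1. The 7 members with 1610 to 4584 bp of exons all lay above their control mean in this library, by 0.12 to 0.34 log2 units. The 3 with 5018 to 12061 bp, which are Nfkbiz, Rel and Nfkb1, lay below theirs, with deviations of -0.17, -0.14 and -0.17. For Nfkbiz, control replicate 5 was lower still. The library's slope on exon length runs the same way over all genes, and its part in the values of the members was not tested beyond the settings given here.

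**Figure D3:**
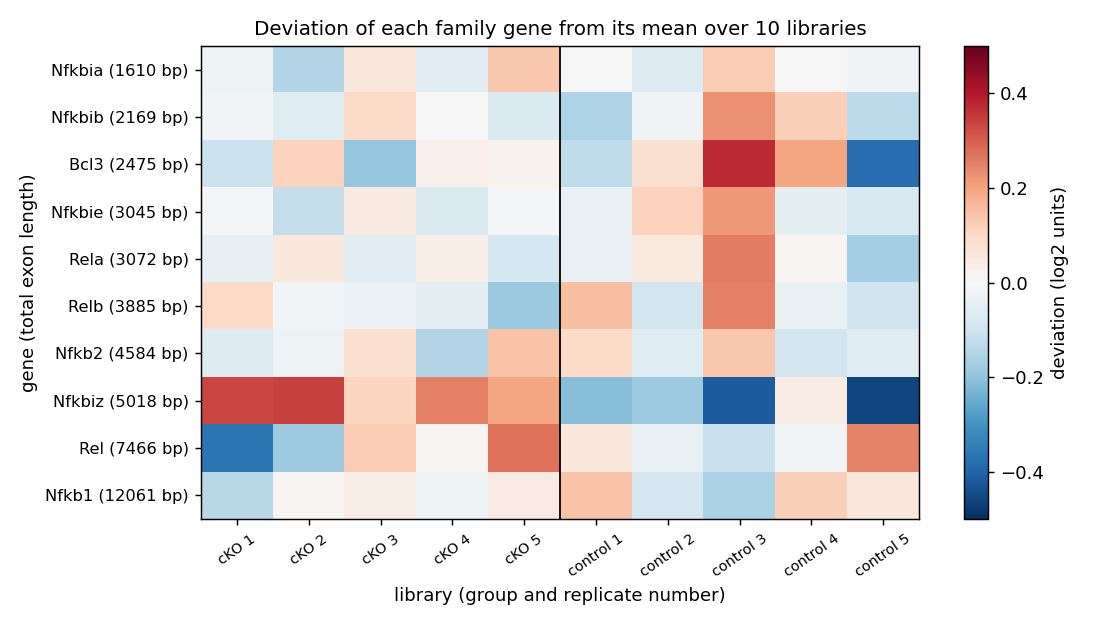
Deviation of each family gene from its own mean over 10 libraries in log2 units (color), with libraries across (Uba3 cKO to the left of the line, control to the right) and genes ordered downward by total exon length. In control replicate 3 the 7 shorter genes are above their mean and the 3 longer ones below, and in the Nfkbiz row the 5 libraries labelled Uba3 cKO and control replicate 4 are above its mean, so that row also holds the difference between the groups.

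Members were then compared with each other over the 10 libraries, in 45 pairs. Rela and Bcl3 had the highest Pearson r, 0.88 (permutation p = 0.00123, adjusted p = 0.0554), with Spearman's rho = 0.84 (permutation p = 0.0035, adjusted p = 0.158). Without control replicates 3 and 5, the libraries farthest from the median of Bcl3, r was 0.63. Nfkb2 and Nfkbia had r = 0.73 (permutation p = 0.0168, adjusted p = 0.338) and rho = 0.61 (permutation p = 0.0658, adjusted p = 0.544), and r = 0.80 without Uba3 cKO replicates 2 and 5. Rela and Nfkbib had r = 0.70 (permutation p = 0.0237, adjusted p = 0.338) and rho = 0.45 (permutation p = 0.1915), and r = 0.41 without control replicates 1 and 3. Nfkbib had r = 0.66 with Bcl3 (permutation p = 0.0355, adjusted p = 0.338) and r = 0.65 with Nfkbie (permutation p = 0.0436, adjusted p = 0.338), or 0.19 with Bcl3 and 0.39 with Nfkbie without the 2 libraries farthest from the median. Spearman's rho was 0.58 with Bcl3 (permutation p = 0.0874) and 0.41 with Nfkbie (permutation p = 0.247). After Benjamini-Hochberg adjustment 0 of the 45 pairs passed 0.05, with 5 by Pearson and 3 by Spearman at an unadjusted p under 0.05. The median r over the pairs was 0.13.

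The levels of 4 marker lists gave 40 further relations, of which 0 passed adjustment, with 2 by Pearson and 6 by Spearman at an unadjusted p under 0.05. Relb had r = 0.67 with the leukocyte level (permutation p = 0.0333, adjusted p = 0.459; rho = 0.61, permutation p = 0.0652), and r = 0.60 without Uba3 cKO replicate 5 and control replicate 4. Nfkb1 had r = -0.68 with the oocyte level (permutation p = 0.0344, adjusted p = 0.459; rho = -0.66, permutation p = 0.0443), and r = -0.78 without Uba3 cKO replicates 3 and 5. Nfkbia had rho = -0.79 with the oocyte level (permutation p = 0.00871, adjusted p = 0.264), where Pearson's r was -0.59 (permutation p = 0.0736), or -0.30 without the same libraries. With values centred on the group means r was 0.67 for Relb and -0.69 for Nfkb1. The oocyte level itself ran from 8.82 to 9.72 under the Uba3 cKO label and from 9.08 to 9.79 in controls.

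The genes most like a member were ranked by Pearson r over the 10 libraries, after values had been centred on the group means, among genes with a mean of at least 6 log2 units. For Nfkbiz they were Fut4 (r = 0.95), Gabra3 (r = 0.90) and Wdr89 (r = 0.89). For Relb they were Myd88 (r = 0.95), Tspan4 (r = 0.95) and Tnfrsf1a (r = 0.94), of which Myd88 is the adaptor of Toll-like and interleukin-1 receptors and Tnfrsf1a the main receptor of TNF. For Rela they were Penk, Gm6136 and Rnf187 with r = 0.96 each, and for Bcl3 Mgat1 (r = 0.98), March9 (r = 0.96) and Ube2l6 (r = 0.95). For Nfkbia they were Hint2 (r = 0.95), Ddost (r = 0.94) and Tac1 (r = 0.93), and for Nfkb1 Ankrd12 (r = 0.96), Itprid2 (r = 0.95) and Prkar1a (r = 0.95). For Nfkb2 they were B630019K06Rik (r = 0.97), Pctp (r = 0.93) and Scamp3 (r = 0.93), and for Rel Gatad2b (r = 0.95), Osbpl6 (r = 0.95) and Mre11a (r = 0.94). For Nfkbib they were Med4 (r = 0.96), Bak1 (r = 0.93) and Znrd1as (r = 0.91), and for Nfkbie Deaf1 (r = 0.98), Cpsf4 (r = 0.96) and Slc35c2 (r = 0.95). Each was among the 3 closest of about 11948 genes compared over 10 libraries, so values of this size are a description of these libraries. Relb, Myd88 and Tnfrsf1a each had their highest value in control replicate 3, at 7.562, 8.329 and 10.663. The part of that library in the r values was not tested.

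The pathway around the family was followed from ligand to target, with 95 listed genes of which 70 were tested. By limma 0 of the 70 had an adjusted p under 0.05, and 4 (5.71%) had an unadjusted p under 0.05, against 1.79% over all genes. Their median log2 difference was -0.022, against 0.00034 over all genes tested. The 4 genes were Tnfsf13b, higher under the Uba3 cKO label, and Tlr2, Irak2 and Gadd45b, lower.

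Of 11 ligands 5 were tested. Tnfsf13b, the B cell factor BAFF that signals through the non-canonical pathway, had levels of 5.02, 4.88, 4.48, 4.61 and 4.39 under the Uba3 cKO label, against 4.35, 4.43, 4.49, 4.31 and 4.48 in controls. The groups overlapped, and replicates 1 and 2 of the Uba3 cKO label were the highest (log2 difference 0.26, standard error 0.11). Il18, an interleukin-1 family cytokine, stood at 6.01 ± 0.12 under the Uba3 cKO label and 6.10 ± 0.21 in controls. Il1a, Il1b and Ltb were under the filter, with means of 0.37, 0.66 and 1.68.

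Of 14 receptors 10 were tested, of which 3 had a higher and 7 a lower mean in Uba3 cKO libraries. Tlr2, a Toll-like receptor for bacterial lipoproteins, averaged 4.91 ± 0.060 (SD, n = 5) under the Uba3 cKO label and 5.06 ± 0.10 (SD, n = 5) in controls. Tnfrsf12a, the TWEAK receptor, had the largest difference of the list, -0.41, with a standard error of 0.26. Its level in control replicate 3 was 9.100, with the other controls from 7.602 to 8.352. Under the Uba3 cKO label Tnfrsf12a ran from 7.160 to 8.226. Its difference without control replicate 3 is not given here. Of 14 adaptors, all tested, 7 had the higher mean and 7 the lower. Irak2, a kinase-like partner of Myd88, averaged 7.94 ± 0.23 under the Uba3 cKO label and 8.21 ± 0.17 in controls (log2 difference -0.27, standard error 0.12), and Traf3ip2, the adaptor of interleukin-17 receptors, averaged 7.26 ± 0.081 under the Uba3 cKO label and 7.11 ± 0.18 in controls.

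The kinases of the pathway and the ubiquitin ligase for I-kappa-B overlapped between the groups. All 10 kinases and scaffold proteins were tested, with 0 at an unadjusted p under 0.05 and differences from -0.16 for Map3k14, the NF-kappa-B inducing kinase, to 0.090 for Tbk1, an I-kappa-B kinase relative. Control replicate 3 was the highest control for Map3k14 at 7.895 (others 7.375 to 7.648). It was the lowest control for Tbk1 at 8.680 (others 9.034 to 9.125). Under the Uba3 cKO label Map3k14 ran from 7.367 to 7.511 and Tbk1 from 9.002 to 9.128. The differences of these genes without control replicate 3 are not given here. All 5 genes of SCF-betaTrCP were tested, again with 0 at an unadjusted p under 0.05. Cul1, the cullin that NEDD8 modifies, averaged 11.56 ± 0.056 (SD, n = 5) under the Uba3 cKO label and 11.55 ± 0.10 (SD, n = 5) in controls. Skp1, the adaptor, stood at 12.62 ± 0.13 under the Uba3 cKO label and 12.70 ± 0.16 in controls. Rbx1, the RING subunit, stood at 10.54 ± 0.088 under the Uba3 cKO label and 10.64 ± 0.15 in controls. The betaTrCP genes that recognise phosphorylated I-kappa-B are Btrc and Fbxw11. Btrc stood at 9.53 ± 0.12 under the Uba3 cKO label and 9.42 ± 0.064 in controls, and Fbxw11 at 11.30 ± 0.086 under the Uba3 cKO label and 11.26 ± 0.20 in controls.

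**Figure D4:**
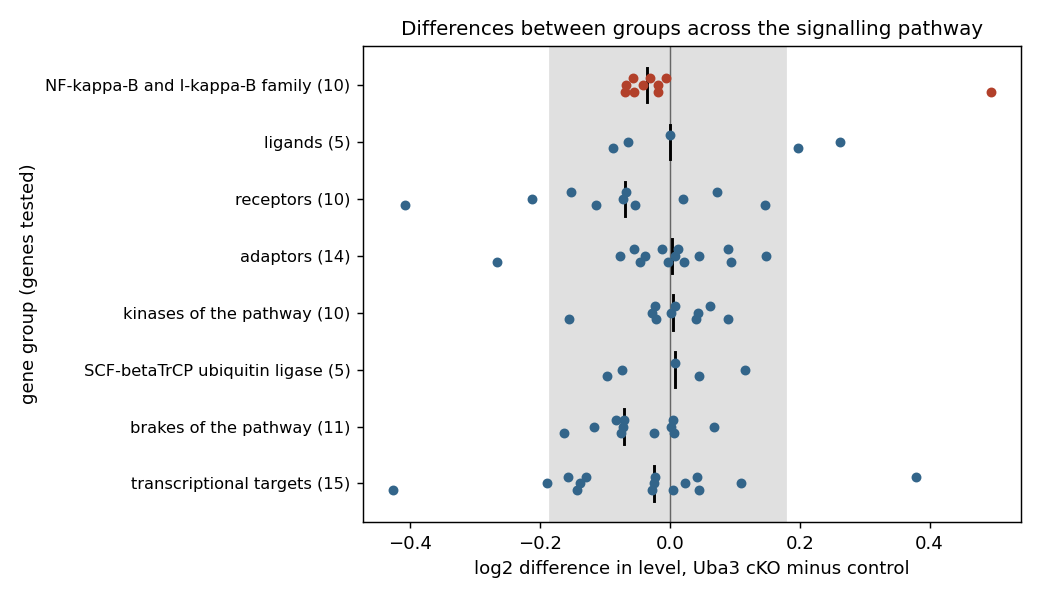
Log2 difference in level, Uba3 cKO minus control (horizontal axis), of every tested gene (points) in the family and in 7 lists of the pathway, with list medians as vertical bars and the middle 95% of all 15629 tested genes as the grey band. Nfkbiz is the rightmost point, and the medians of the lists lie between -0.071 and 0.0084.

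Negative regulators and target genes completed the pathway. Of 12 brakes 11 were tested, 4 with a higher mean and 7 with a lower one in Uba3 cKO libraries, and 0 at an unadjusted p under 0.05. Tnfaip3, or A20, a ubiquitin-editing enzyme that NF-kappa-B induces, averaged 5.21 ± 0.061 (SD, n = 5) under the Uba3 cKO label and 5.37 ± 0.15 (SD, n = 5) in controls, and Tnip2, which binds it, 7.49 ± 0.058 under the Uba3 cKO label and 7.57 ± 0.073 in controls. Another nuclear I-kappa-B gene, Nfkbid, was under the filter at 2.77 under the Uba3 cKO label and 2.80 in controls. Of 29 targets 15 were tested, 6 with the higher mean and 9 with the lower. Gadd45b, a stress sensor that NF-kappa-B induces, had levels of 9.77, 9.26, 9.62, 8.86 and 9.89 under the Uba3 cKO label, against 9.96, 9.70, 10.22, 9.95 and 9.70 in controls (log2 difference -0.43, standard error 0.17). Its groups overlapped, with the lowest values in replicates 2 and 4 of the Uba3 cKO label. The chemokine Cxcl1 averaged 4.92 ± 0.15 under the Uba3 cKO label and 5.11 ± 0.17 in controls. Lcn2, a lipocalin that depends on I-kappa-B zeta for its induction, averaged 4.05 ± 0.21 (SD, n = 5) under the Uba3 cKO label and 4.19 ± 0.32 (SD, n = 5) in controls, a value chosen after it was seen.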

How the data were processed

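Libraries were TruSeq libraries of total RNA from whole ovaries, read on a NovaSeq, per the labels' protocols. The submitters' processing notes list fastp, STAR, featureCounts, DESeq2 and the build GRCm39, without versions or roles. The authors deposited 1 log2 value per gene and library, from -0.21 to 20.19. The transform is not given in the sources used here, and differences of low genes may be understated, so Nfkbie, Bcl3 and lower genes are the most affected. Depth and counting error are unknown.

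Columns carry the names that the labels give the samples. Symbols were found for 22188 of 22891 identifiers with GENCODE M21 and RefSeq names. The 15629 genes with a mean log2 value of at least 3.32 (10 when that mean is taken back from log2) entered limma 3.58.1 (R 4.3.3). The fit used the trend option, no covariate and Benjamini-Hochberg adjustment at 0.05. The fit was tested on simulated data, and the share of shifted genes it recovered there is not given here. Relations used permutation tests with 100000 resamples in Python 3.11.15. The members, the 13 lists (171 entries) and the rules for naming genes were chosen with earlier results of these data known. Named were all members, Uba3, the 2 tested genes with the smallest p of each pathway list, all of SCF-betaTrCP, the 2 highest of each cell type list and the 3 genes most like each member. Named outside these rules, after values were seen, were Lcn2, Nfkbid, C1qa, C1qb, Muc1, Ptprc, S100a8, S100a9, Itgam, Il1a, Il1b, Ltb and Dip2c. Alternatives were other filters, no trend, library weights, quantile normalization, a replicate block, covariates and leaving out each library.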

Additional observations from a re-analysis of the deposited data

Results flagged for a closer look

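Values were looked at in 106 groups of 5 libraries (members, Uba3, lists and named genes), and 7 held a library farther from the other 4 than Dixon's 95% critical value of 0.71 allows, where chance flags about 1 in 20 groups. No member was among them, and 5 of the 7 were control replicate 3. In that library the kinase list level was the lowest control at 9.24 (others 9.32 to 9.36) and the level of the brakes the highest at 8.68 (others 8.48 to 8.52). Its Tbk1 level was 8.68 (others 9.03 to 9.13) and its Fbxw11 level 10.91 (others 11.30 to 11.37), each the lowest control, and its Rbx1 level was the highest at 10.90 (others 10.56 to 10.60). Tnfaip3 was highest in control replicate 5 at 5.63 (others 5.24 to 5.34). Tnip2 was lowest in Uba3 cKO replicate 2 at 7.39 (others 7.50 to 7.54).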

How the results depend on the processing

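By limma, 0 genes were called in 16 of 17 alternative settings. Genes at an unadjusted p under 0.05 ran from 133 of 12357 with a mean of at least 50 to 604 of 22891 with no filter. With the libraries' slope on exon length as a covariate, chosen after seeing the data, 1 gene was called, Dip2c (log2 difference -0.66, adjusted p = 0.0166). In 160 alternative values of the members, 0 moved by more than the within-group SD. Leaving out 1 library cannot move a difference that far, and the replicate block leaves it as it was. For those settings the count was fixed in advance. The sign turned in at least 1 setting for 7 members. The difference of Nfkbiz lay between 0.44 and 0.57. With the replicate number as a block it was 0.49, and 0 genes were called. The labels do not say whether the numbers pair ovaries. Deviations of same-numbered libraries correlated at -0.34, 0.20, 0.099, 0.034 and 0.32 for replicates 1 to 5. Of the 5 libraries labelled Uba3 cKO, 1 matched its own number best. A pairing of ovaries need not leave such a trace, so these values do not settle it. The setting for linear values was not run, since the values are log2. Unknown depth limits the members under 6 log2 units, Nfkbie and Bcl3.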
